A study of Mus musculus with 12 samples.

Results

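The transcripts described here are those of 10 genes known from neutrophils and their bone marrow precursors, measured in isolated mouse eosinophils. The genes were taken as a list of symbols by their known roles, with no threshold on a measured value, although earlier results of these data were known when the list was made. They fall into 4 primary granule genes (Mpo, Elane, Prtn3 and Ctsg), 4 secondary granule genes (Ltf, Camp, Ngp and Lcn2) and 2 S100 genes (S100a8 and S100a9). They are 10 of the 53801 genes in the count table, of which 26487 had at least 1 count. All 10 were detected in all 12 libraries and were tested in every comparison. The data are mRNA sequencing counts from eosinophils of bone marrow and of blood, with 3 libraries for each of 4 groups. Atg5-knockout mice were Atg5 flox/flox with eoCre and the Il5 transgene, and control mice carried eoCre and the Il5 transgene without the floxed alleles. In eoCre mice the Cre recombinase is encoded at the locus of eosinophil peroxidase (Epx), so excision of the autophagy gene Atg5 is directed to cells that use that promoter. The Il5 transgene is driven by Cd3d sequences, so both genotypes overproduce interleukin 5 from T cells and have high numbers of eosinophils, and no group without the transgene was sequenced. The ages of these mice are not given in the sources used here. Cells of both tissues were purified by antibody depletion of other cells, with Ly6G, a surface protein of neutrophils, among the targets, and blood was first spun over a density medium and its red cells were lysed in water. The 10 genes therefore bear on how much RNA of neutrophils and of granulocyte precursors such preparations hold in each tissue and genotype.

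Neutrophil granules are filled in order as the cell matures in the marrow. Promyelocytes make the primary (azurophil) granules, with myeloperoxidase and the serine proteases, myelocytes and metamyelocytes make the secondary (specific) granules, with lactoferrin and cathelicidin, and transcription of each set is switched off when its stage has passed. The circulating neutrophil thus carries granule proteins whose mRNAs it has largely lost, while the calcium-binding proteins S100A8 and S100A9, which pair as calprotectin, are abundant in its cytosol. Eosinophils descend from marrow progenitors too and fill their own granules with eosinophil peroxidase and major basic protein.

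The letters before the start of the primary granule genes are shown because these 4 genes had the largest differences between tissues. RefSeq promoter windows (GRCm38.p6, 250 bases before to 50 bases after the start of each gene) were found for all 10 genes, and the stretches printed lie before the RefSeq start and outside every exon of the annotation used for counting. The motif GAGGAAG, the purine-rich core to which the myeloid factor PU.1 and other ETS proteins bind, is in capitals. It was searched on both strands after the windows had been read.
Mpo, chr11:87793534-87793580, plus strand: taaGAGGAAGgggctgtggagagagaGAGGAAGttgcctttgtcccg
Elane, chr10:79886185-79886246, plus strand: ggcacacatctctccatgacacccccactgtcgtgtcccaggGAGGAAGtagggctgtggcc
Prtn3, chr10:79879530-79879613, plus strand: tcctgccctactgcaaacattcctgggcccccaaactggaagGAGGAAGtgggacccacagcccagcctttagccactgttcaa
Ctsg, chr14:56102735-56102824, minus strand: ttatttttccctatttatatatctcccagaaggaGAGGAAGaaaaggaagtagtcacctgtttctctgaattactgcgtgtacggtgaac
The stretch of Prtn3 lies in an intron of the gene as annotated for counting, whose start is farther upstream. The motif starts 247 and 224 bases before the start of Mpo, 85 before Elane, 95 before Prtn3 and 216 before Ctsg. Lcn2 and S100a8 hold its reverse complement CTTCCTC 21 and 171 bases before their starts, so that 6 of 10 member windows hold the motif on either strand, beside 13.6% of all 32851 windows of this length.

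The C/EBP motif TTNNGCAA, which joins the recognition letters of both partners of a dimer of these granulocyte factors, was searched on both strands and is in capitals in the windows of Ngp and Ltf, the secondary granule genes that held it on chromosome 9. In Ltf the capitals read as the motif itself, and in Ngp they read as its reverse complement TTGCNNAA, the motif lying on the other strand.
Ngp, chr9:110419608-110419746, plus strand: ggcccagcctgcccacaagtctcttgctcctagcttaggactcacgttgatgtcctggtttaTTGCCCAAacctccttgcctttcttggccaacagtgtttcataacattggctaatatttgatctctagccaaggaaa
Ltf, chr9:111019092-111019270, plus strand: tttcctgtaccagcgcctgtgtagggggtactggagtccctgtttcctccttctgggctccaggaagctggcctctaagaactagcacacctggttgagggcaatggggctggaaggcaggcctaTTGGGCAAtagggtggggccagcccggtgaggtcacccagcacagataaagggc
Ngp holds it 138 and 11 bases before its start, the second match lying in a stretch not printed, and Ltf holds it 75 bases before its start. Lcn2 and S100a9 hold it too, which makes 4 of 10 member windows beside 10.8% of all windows. The RUNX core TGTGGT, searched on both strands too, was in 3 of 10 member windows (Ctsg, Ltf and S100a9) beside 16.8% of all windows. These matches describe the letters and say nothing on whether a factor is bound.

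On the same build, by the annotation of the counts, Elane (ENSMUSG00000020125) lies at chr10:79886247-79888215, with 3072 bases between it and the end of Prtn3 (ENSMUSG00000057729, chr10:79874476-79883174). Mpo (ENSMUSG00000009350) lies at chr11:87793581-87804413 and Ctsg (ENSMUSG00000040314) at chr14:56099881-56102574. Ltf (ENSMUSG00000032496, chr9:111019271-111042767), Camp (ENSMUSG00000038357, chr9:109847379-109849617) and Ngp (ENSMUSG00000032484, chr9:110419747-110423012) share a stretch of chromosome 9, with Ngp 570129 bases from Camp and 596258 from Ltf. Lcn2 (ENSMUSG00000026822) lies at chr2:32384633-32388252. S100a8 (ENSMUSG00000056054, chr3:90668978-90670035) and S100a9 (ENSMUSG00000056071, chr3:90692632-90695721) are neighbors. Prtn3 overlaps Plppr3 on the other strand in 159 exon bases, and since the counting did not use strand its low counts are uncertain. The exons of Mpo share 512 of their 3424 bases with the antisense gene Gm11505, which had 0 counts. That count does not show how reads in the shared bases were treated, so the level of Mpo is uncertain to that extent.

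Total counts ran from 18885052 to 30270166 per library. The deleted gene, Atg5, had 31 to 34.5 counts-per-million (CPM) in Atg5-knockout bone marrow and 41.4 to 44.8 in control bone marrow, a difference of -0.44 ± 0.11 on the log2 scale (SE, edgeR adjusted p = 0.157), and 36 to 52.2 against 40 to 58.9 CPM in blood, where the groups overlapped. Since a count over the whole gene includes exons that Cre leaves in place, this checks the labels only in part. All 10 eosinophil markers were above 0 in every library, and their summed share of counts was 8.04 to 10.2% in bone marrow and 1.8 to 4.05% in blood. Control blood replicate 1 held 14.8% red cell marker counts, beside 0.428 to 1.44% in the other blood libraries. Values below are CPM scaled by TMM factors, a normalization to a trimmed mean of gene ratios, unless given as transcripts-per-million (TPM), which also divides by exon length and is the scale used to compare genes with each other.

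S100a9 and S100a8 were among the most abundant transcripts of the marrow eosinophil libraries. By mean TPM S100a9 ranked 2 to 3 among all genes in the bone marrow groups and 5 to 11 in the blood groups, with 22591 to 37181 TPM in single marrow libraries. S100a8 ranked 9 in both marrow groups and 18 to 27 in blood, and Ngp ranked 10 to 12 in marrow and 17 to 24 in blood. Camp ranked 16 to 19 in marrow but 267 to 276 in blood. The primary granule genes ranked 64 to 225 in marrow and 7728 to 11192 in blood. The order of the blood means of neighboring primary granule genes cannot be told from their spread, since single libraries held 1.07 to 2.82 TPM of Elane, 2.03 to 5.55 of Ctsg, 3.43 to 5.16 of Mpo and 2.18 to 7.2 of Prtn3. In bone marrow the summed counts of all 10 genes made up 1.91 to 2.78% of each library, and in blood 0.555 to 1.49%.

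**Figure D1:**
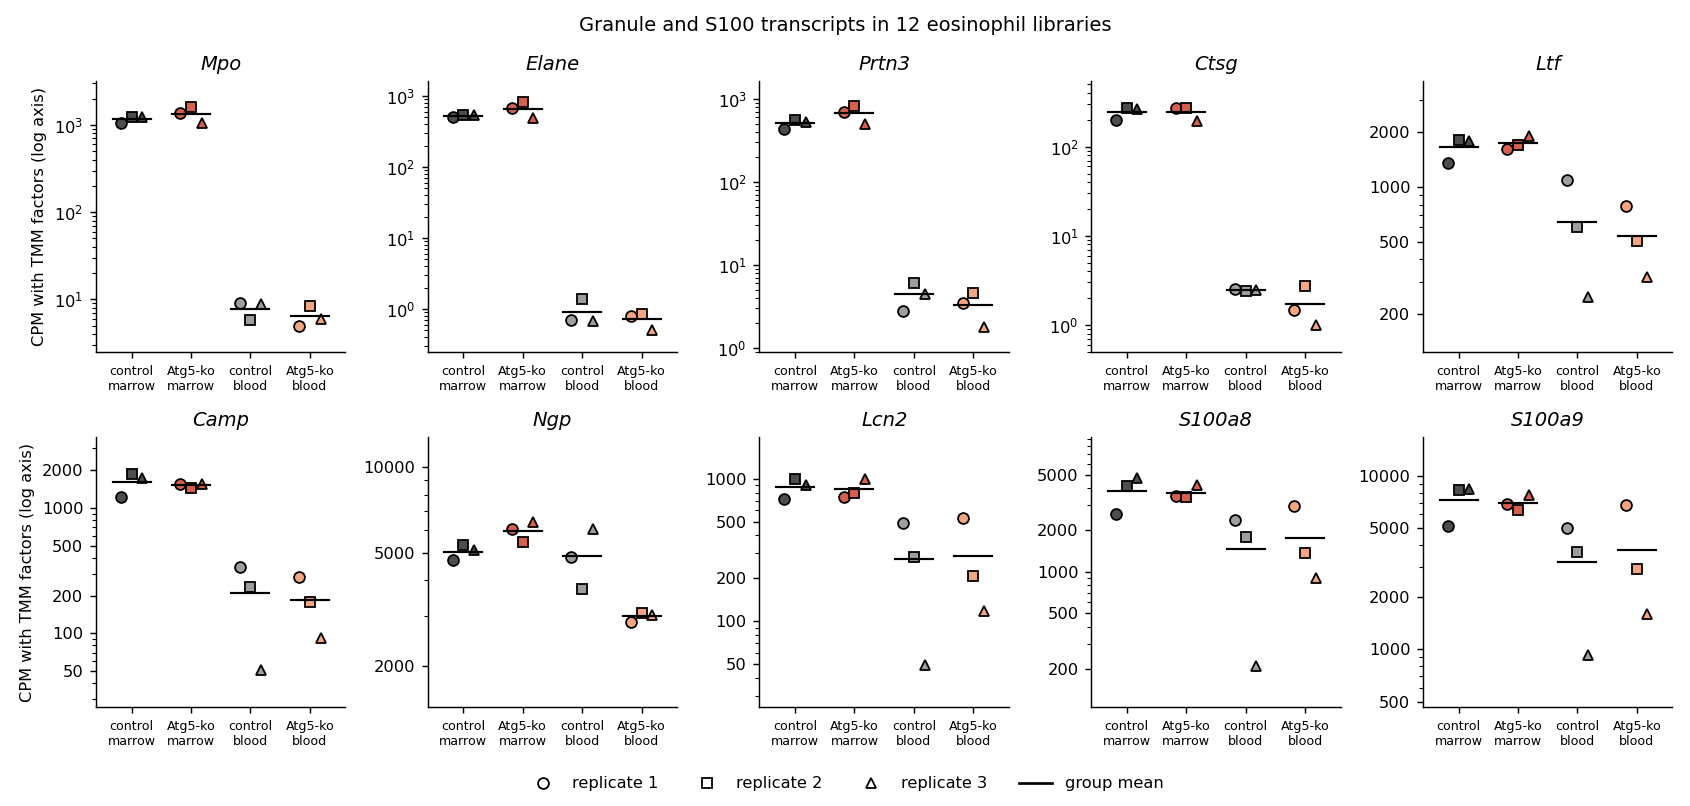
Each panel plots 1 gene, with CPM scaled by TMM factors on a log axis against the 4 groups (Atg5-ko, Atg5-knockout), 1 symbol per library by replicate number and a line at the group mean. The 4 primary granule genes sit at 193 CPM or more in every bone marrow library and at 9 CPM or less in every blood library, whereas the levels of Ngp in control blood lie around those of control bone marrow.

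The primary granule genes were all far lower in blood than in bone marrow, in both genotypes. Elane, which encodes neutrophil elastase, was measured at 501, 543 and 532 CPM in control bone marrow and at 0.71, 1.37 and 0.685 CPM in control blood (replicates 1 to 3 throughout). The marrow and blood libraries were separated by a wide gap, with 10 to 31 Elane counts in each of the 6 blood libraries. The fold change was 553-fold lower (log2 -9.11, 95% interval -9.8 to -8.42, adjusted p = 2.16e-06, edgeR quasi-likelihood test). In Atg5-knockout mice Elane was at 676, 809 and 492 CPM in bone marrow and 0.799, 0.853 and 0.498 CPM in blood, 866-fold lower (log2 -9.76, interval -10.4 to -9.08).

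Mpo, the gene of myeloperoxidase, the heme enzyme that makes hypochlorous acid, was at 1045, 1221 and 1223 CPM in control bone marrow and 9, 5.77 and 8.8 CPM in control blood. It was 147-fold lower in control blood (log2 -7.2 ± 0.27, SE) and 199-fold lower in Atg5-knockout blood (-7.63 ± 0.28), where its levels were 5.01, 8.44 and 5.92 CPM beside 1379, 1589.9 and 1051 CPM in marrow. Again no blood library came near a marrow library.

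Prtn3, which encodes proteinase 3, had 433, 565 and 527 CPM in control bone marrow and 2.78, 6.13 and 4.5 CPM in control blood. The difference was -6.81 ± 0.32 (log2, SE) in control mice and -7.61 ± 0.36 in Atg5-knockout mice, with 703, 822 and 496 CPM in marrow and 3.45, 4.62 and 1.79 CPM in blood. Ctsg, the gene of cathepsin G, was at 200, 273 and 267 CPM in control marrow and 2.55, 2.42 and 2.45 CPM in control blood, a difference of -6.63 ± 0.23, and at 271, 272 and 193 beside 1.47, 2.74 and 0.995 CPM in Atg5-knockout mice, a difference of -7.07 ± 0.33. Among themselves, the 4 genes kept a narrow proportion in marrow, with a TPM ratio of Prtn3 to Elane of 0.491 to 0.591 in the 6 marrow libraries and 2.05 to 3.73 in the 6 blood libraries, the latter from 10 to 139 counts a gene. Prtn3 in blood also carries the uncertainty of its overlap with Plppr3.

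Of the secondary granule genes, Camp and Ltf were lower in blood in both genotypes, whereas Ngp differed between tissues in Atg5-knockout mice and did not pass the test in control mice. Camp encodes the cathelicidin precursor of an antimicrobial peptide. Its levels were 1222, 1857 and 1745 CPM in control bone marrow and 338, 236 and 51.2 CPM in control blood, a 7.62-fold lower level (log2 -2.93 ± 0.58, adjusted p = 0.00532). In Atg5-knockout mice they were 1567, 1443 and 1541 CPM in marrow and 281, 178 and 91.2 CPM in blood, 7.92-fold lower (log2 -2.99 ± 0.35). The blood libraries of Camp did not reach the lowest marrow library in either genotype.

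Ltf, the gene of the iron-binding protein lactoferrin, had 1352, 1818 and 1795 CPM in control bone marrow and 1089, 602 and 248 CPM in control blood. The groups did not overlap, although control blood replicate 1 lay close to the lowest marrow library. The difference was -1.33 ± 0.45 (log2, adjusted p = 0.048), a call that was lost in 6 of 13 alternative settings, among them the fits without control blood replicate 2 (adjusted p = 0.134) and without control bone marrow replicate 1, 2 or 3 (0.0812 or above). In Atg5-knockout mice Ltf was at 1620.3, 1694 and 1914 CPM in marrow and 784, 508 and 322 CPM in blood, and this difference (-1.63 ± 0.28, adjusted p = 0.00156) held under all 13 alternatives.

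Lcn2 encodes lipocalin 2, which binds bacterial siderophores. It was measured at 727, 991 and 904 CPM in control bone marrow and 486, 280.1 and 49.5 CPM in control blood. These levels did not overlap, but the spread between the blood libraries, 9.81-fold from lowest to highest, left the difference of -1.66 ± 0.63 short of the threshold (adjusted p = 0.0698). It passed in 5 of 13 alternatives. These were the fits without control blood replicate 1 (0.00673) or replicate 3 (0.0194), with library size alone (0.0351), with the replicate block (0.019) and without the filter (6.29e-05). The levels in Atg5-knockout mice were 746, 789.7 and 990.5 CPM in marrow and 530.3, 207 and 118 CPM in blood, a difference of -1.5 ± 0.46 with an adjusted p of 0.0237, which passed in 8 of 13 alternatives. It was lost without blood replicate 2 (0.0913), without marrow replicate 1, 2 or 3 (0.052, 0.0526 and 0.0783) and in the fit of all 12 libraries (0.0675).

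Ngp, the gene of neutrophilic granule protein, a relative of the cathelicidins, showed another pattern. In control mice it was at 4705, 5311 and 5112 CPM in bone marrow and 4826, 3740.1 and 6080.1 CPM in blood, so that the groups overlapped and the difference was -0.03 ± 0.22 (log2, interval -0.52 to 0.46, adjusted p = 0.921). Its sign turned with DESeq2 and with RLE factors (log2 0.0054 in both). In Atg5-knockout mice Ngp was at 6052, 5462 and 6403 CPM in bone marrow and 2854, 3064 and 3029 CPM in blood, 1.92-fold lower (log2 -0.94 ± 0.14, adjusted p = 0.000608). The blood libraries of this genotype lay within 1.07-fold of each other and below all 3 marrow libraries, and the call held under all 13 alternatives.

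The S100 genes varied widely among blood libraries. S100a8 was at 2610.2, 4171 and 4696 CPM in control bone marrow and 2373, 1786 and 210.2 CPM in control blood, an 11.3-fold range within the blood group, and the difference of -1.37 ± 0.68 did not pass (adjusted p = 0.151). In Atg5-knockout mice it was at 3507, 3459 and 4175 CPM in marrow and 2947, 1359.8 and 897 CPM in blood, and the difference of -1.03 ± 0.37 passed (adjusted p = 0.0446) but was lost in 7 of 13 alternatives, which include DESeq2 (0.0923) and leaving out any library other than blood replicate 1 (0.0826 to 0.147). S100a9 was at 5133, 8339 and 8435 CPM in control marrow and 5037, 3663 and 925 CPM in control blood (log2 -1.17 ± 0.52, adjusted p = 0.114), and at 6895, 6361 and 7781 beside 6760.4, 2904 and 1608 CPM in Atg5-knockout mice (log2 -0.84 ± 0.43, adjusted p = 0.136). In that last comparison blood replicate 1 lay among the marrow libraries, and without it the difference passed (-1.58, adjusted p = 0.000292). Without control blood replicate 1, S100a8 (adjusted p = 0.0405) and S100a9 (0.0166) passed in control mice. The TPM ratio of S100a9 to S100a8 was 2.39 to 2.66 in bone marrow and 2.38 to 3.05 in 5 of the blood libraries, with 5.85 in control blood replicate 3.

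In all, 6 of 10 genes were called lower in blood than in bone marrow in control mice and 9 of 10 in Atg5-knockout mice, and none higher, at an adjusted p under 0.05. Of all 13669 genes tested in control mice 34.2% were called and 18% were called lower, and of 13853 in Atg5-knockout mice 47.6% were called and 24.1% lower. The groups did not overlap for 9 of 10 genes in each genotype, the exception being Ngp in control and S100a9 in Atg5-knockout mice, beside 49.7% and 60.1% of all genes tested. The median difference of the 10 genes was -2.3 in control and -2.31 in Atg5-knockout mice, with medians over all genes of -0.0029 and -0.01. Lower levels in blood were not particular to neutrophil genes, since the eosinophil granule genes Epx and Prg2 were lower there too. Epx was at 3304 to 5238 CPM in control marrow and 448 to 942 in control blood, and at 4864 to 5158 and 260.4 to 538 in Atg5-knockout mice. Prg2 was at 40809 to 51377 and 9958 to 23717 CPM in control mice, and at 45469 to 56194 and 6915 to 13549 in Atg5-knockout mice. Without control blood replicate 1, the library with the red cell counts, 9 of 10 genes were called in control mice, Lcn2, S100a8 and S100a9 being added. With counts scaled by library size alone, the median of all genes moved to -0.313 in control and -0.241 in Atg5-knockout mice, and the genes called higher and lower went from 2212 and 2466 to 1308 and 3906 in control mice and from 3256 and 3336 to 2258 and 4333 in Atg5-knockout mice, while 7 and 9 of the 10 genes were called, all lower. In such bulk libraries fewer cells of a type and less RNA per cell cannot be told apart.

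**Figure D2:**
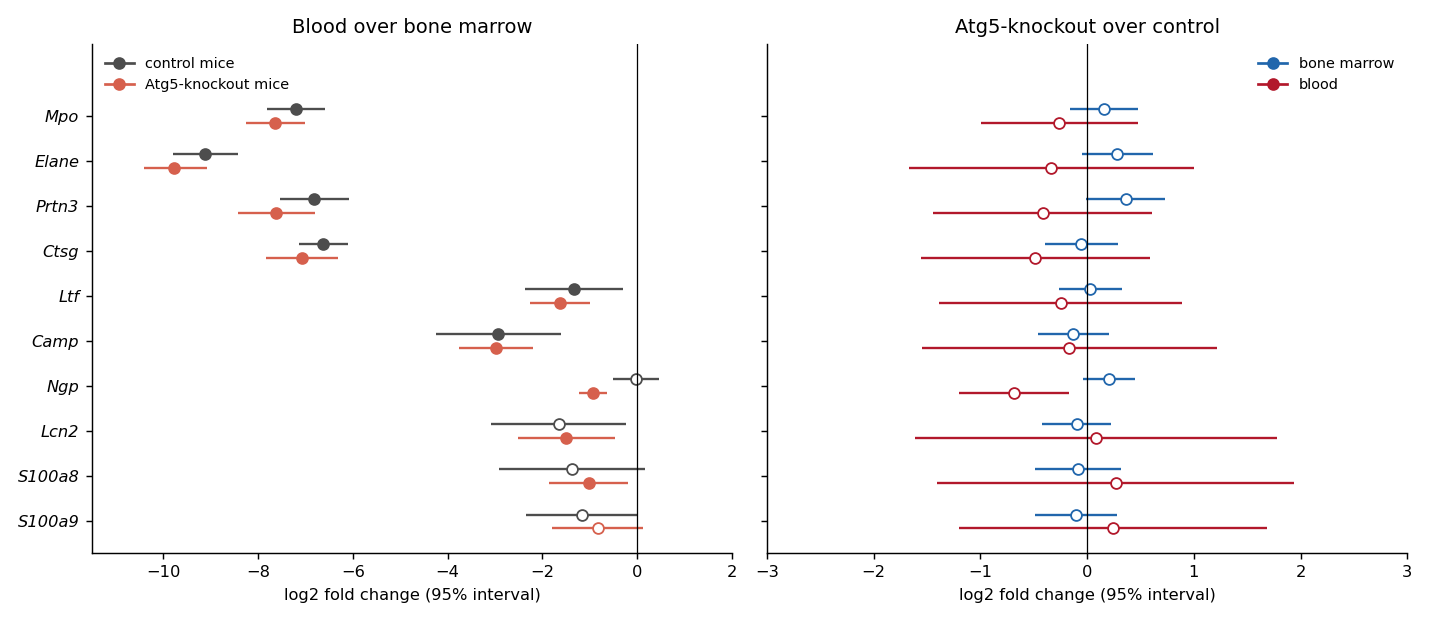
Points are log2 fold changes of the 10 genes from edgeR with 95% intervals, for blood over bone marrow in each genotype (left) and Atg5-knockout over control in each tissue (right, on a narrower axis), filled where the adjusted p was under 0.05. The primary granule genes lie between -9.76 and -6.63 on the left, and no point is filled on the right.

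Deletion of Atg5 was not accompanied by a called change in any of the 10 genes, in either tissue. In bone marrow 0 of 10 were called by edgeR, beside 0.348% of 13781 genes tested (0.145% higher and 0.203% lower), and 0 of 10 were below an unadjusted p of 0.05. DESeq2 called 0 as well, and so did each of the other alternatives. Elane differed by 0.28 (log2, interval -0.05 to 0.62, adjusted p = 0.586), with the 3 Atg5-knockout libraries (492 to 809 CPM) spread around the control libraries (501 to 543 CPM). Prtn3 differed by 0.36 (interval -0.01 to 0.73, adjusted p = 0.531), the lowest adjusted p of the 10. For Mpo the difference was 0.16 (interval -0.16 to 0.48) and for Ctsg -0.05 (interval -0.4 to 0.29). The secondary granule and S100 genes lay between -0.13 (Camp, interval -0.46 to 0.2) and 0.2 (Ngp, interval -0.04 to 0.45). Ngp alone had groups that did not overlap, with 5462 to 6403 CPM in Atg5-knockout and 4705 to 5311 CPM in control marrow, beside 14.5% of all genes tested.

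In blood 0 of 10 genes were called by edgeR, by DESeq2 and under every other alternative, beside 0.0371% of 13460 genes tested, and the adjusted p was 1 for each. At an unadjusted p under 0.05 there was 1 gene, Ngp. It was at 2854 to 3064 CPM in Atg5-knockout and 3740.1 to 6080.1 CPM in control blood, without overlap (7.54% of all genes tested), and differed by -0.68 ± 0.23 (log2, interval -1.2 to -0.17). The intervals of the other 9 genes were wide. That of S100a8 ran from -1.41 to 1.94, that of Lcn2 from -1.61 to 1.78 and that of Elane, at 10 to 31 counts per library, from -1.67 to 1. These intervals come from a fit that leaves out a possible pairing of the blood libraries by number, and with the number as a block 0 of 10 genes were called as well. The median of the 10 differences was -0.253 in blood and -0.011 in bone marrow, beside 0.0062 and 0.0029 over all genes.

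The difference of the Atg5-knockout effect between tissues was tested in all 12 libraries, and 0 of the 10 genes were called, beside 0% of 14712 genes tested with edgeR. DESeq2 called 14 genes, none of them a member, and 740 genes were below an unadjusted p of 0.05 with edgeR. One of these was Ngp, with a difference of -0.93 ± 0.24 between the effect in blood and that in marrow (log2, unadjusted p = 0.00192, adjusted p = 0.852). The other 9 differences lay between -0.83 (Prtn3) and 0.31 (S100a8). Since these comparisons share their libraries, the values of Ngp in the 4 groups are given once more by their means, 5043 ± 308 CPM in control marrow, 5973 ± 476 in Atg5-knockout marrow, 4882 ± 1171 in control blood and 2982 ± 112 in Atg5-knockout blood (SD, n = 3).

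Within the blood groups, 5 of the 6 secondary granule and S100 genes ranked the libraries alike. Camp, Ltf, Lcn2, S100a8 and S100a9 were all highest in replicate 1 and lowest in replicate 3 in both genotypes. Ngp went another way, being highest in control blood replicate 3, where the other 5 were lowest. The numbers are names and carry no order. The TPM ratio of Ngp to Camp was 1.77 to 2.58 in the 6 marrow libraries, 6.3 to 20.6 in 5 blood libraries and 73.7 in control blood replicate 3. That of Ngp to S100a8 was 0.618 to 1.02 in marrow and 0.55 to 1.92 in 5 blood libraries, with 16.4 in control blood replicate 3. Over the deviations of the 12 libraries from their group means, Ngp had a Pearson r of -0.467 with the mean of the 6 genes, Ngp included, and the other 5 had 0.984 to 0.993. These values describe 12 libraries, and the mean shares its genes with each of them.

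**Figure D3:**
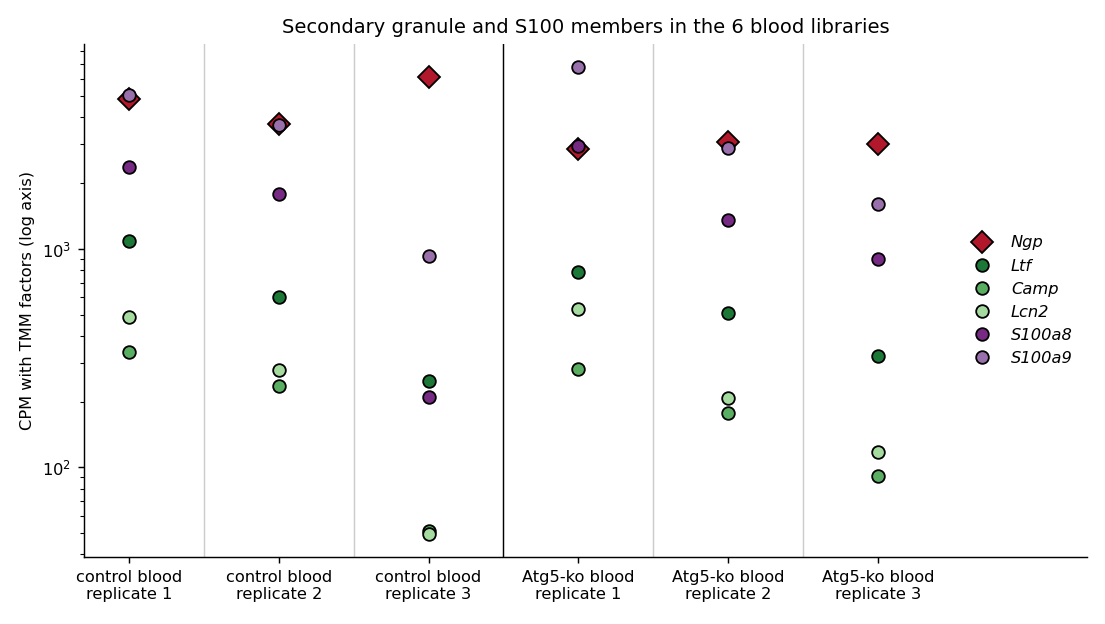
CPM scaled by TMM factors on a log axis in each of the 6 blood libraries, 1 circle per gene for Ltf, Camp, Lcn2, S100a8 and S100a9 and a diamond for Ngp. In control blood replicate 3 the circles fall to between 49.5 and 925 CPM while Ngp is at 6080.1 CPM.

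Of the named markers of mature neutrophils, Csf3r and Ly6g ranked the blood libraries as the S100 genes did, and Retnlg did not. Csf3r, the receptor of granulocyte colony-stimulating factor, was at 282, 50 and 34.5 CPM in Atg5-knockout blood and 148, 61.5 and 19.2 CPM in control blood, and at 41.5 to 65.9 CPM in the marrow libraries. Ly6g, whose protein was the target of the depletion, was at 49.1, 33.7 and 27.1 CPM and 56.9, 44.3 and 23.3 CPM, with 27.7 to 56.2 CPM in marrow. Cxcr2, a chemokine receptor, was at 144, 37.7 and 41.4 CPM and 81.7, 53.3 and 25.9 CPM in blood, so that replicate 1 was again highest in both. Retnlg was lowest in replicate 1 of both, at 6228, 6242 and 6927 CPM in Atg5-knockout and 4747, 7774 and 7348 CPM in control blood. The summed share of 21 mature neutrophil genes was 1.05, 0.833 and 0.894% in Atg5-knockout blood. In control blood it was 0.729, 0.964 and 0.839%, so the list as a whole did not have the order of the S100 genes. The share of T and NK cell markers had the order of S100a8 too, from 0.0384 to 0.00969% of counts in Atg5-knockout blood and from 0.0228 to 0.00445% in control blood. By contrast Prg2, the gene of eosinophil major basic protein, was lowest in replicate 1 of both, with 6915, 13549 and 11839 CPM in Atg5-knockout and 9958, 14789 and 23717 CPM in control blood. Monocyte and macrophage markers made up 0.167 to 0.227% of counts in blood and 0.247 to 0.303% in bone marrow. The part of these cell types in the levels of the S100 and secondary granule genes was not tested.

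Other genes of the granulocyte path were taken as lists, whose counts stand beside the shares of all genes called, 18% lower and 16.2% higher in control mice and 24.1% lower and 23.5% higher in Atg5-knockout mice. Of 9 further promyelocyte genes, 6 were called lower and 1 higher in blood, in each genotype. Ms4a3, a membrane protein gene of granulocyte progenitors, fell in both genotypes (log2 -6.46 in control and -8.25 in Atg5-knockout mice, the order used for all pairs that follow), and Fcnb, a ficolin gene of marrow granulocytes, fell likewise (-5.22 and -5.75). Prss57, a serine protease stored in the same granules as elastase, also fell (-3.78 and -4.5). The exception was Bpi, the gene of the bactericidal permeability-increasing protein, at log2 2.05 and 1.12, which was counted at 9 to 45 reads per library and was chosen for mention after its values were seen. Precursor and cycling genes went with the primary granule genes: 7 of 10 were called lower in control mice, and 9 of 10 lower and 1 higher, Myc (log2 0.96), in Atg5-knockout mice. Cdk1, the mitotic kinase, fell (-4.64 and -5.6), and so did Myb, a factor of early progenitors (-4.19 and -4.21). The share of the 10 genes was 0.119 to 0.18% of counts in bone marrow and 0.012 to 0.0194% in blood, and their part in the levels of the primary granule genes was not tested.

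Among 13 other secondary granule genes, 2 were called lower and 1 higher in control mice, and 7 lower and 1 higher in Atg5-knockout mice. The counts in control mice are no larger a share than over all genes (18% lower and 16.2% higher). Orm1, an acute-phase protein gene, fell in both (-2.02 and -1.55). Hp, the gene of haptoglobin, fell by 0.78 on the log2 scale in control mice and was at -0.76 without passing in Atg5-knockout mice. Chil3, a chitinase-like protein gene, and Olfm4, an olfactomedin, fell in Atg5-knockout mice (-1.68 and -1.27) and were at -1.14 and -0.21 without passing in control mice. Pglyrp1, which encodes a peptidoglycan recognition protein also known from eosinophils, rose in both, by 1.14 and 1.12, from group means of 1104 and 1069 CPM in marrow to 2410.2 and 2223 CPM in blood.

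Genes of mature neutrophils were not called lower in blood. Of 21 such genes 5 were called higher and 0 lower in control mice, beside 16.2% of all genes called higher, and of 20 tested in Atg5-knockout mice 10 were called higher and 0 lower, beside 23.5%. With library size alone the calls were 4 higher and 1 lower in control mice and 6 higher and 1 lower in Atg5-knockout mice. G0s2, a lipase inhibitor gene, rose by 2.89 and 3.45 and Trem1, a myeloid receptor gene, rose by 2.36 and 2.43. Retnlg, the gene of a resistin-like protein, was at 4201 to 5216 CPM in control marrow and 4747 to 7774 CPM in control blood, a difference of 0.48 that did not pass, and rose by 0.67 in Atg5-knockout mice (adjusted p = 0.0473). Ly6g, Csf3r and Cxcr2 did not pass in either, with differences of -0.09, 0.51 and -0.59 in control and -0.25, 1.19 and 0.42 in Atg5-knockout mice. The summed share of the list was 0.459 to 0.778% in bone marrow and 0.729 to 1.05% in blood.

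**Figure D4:**
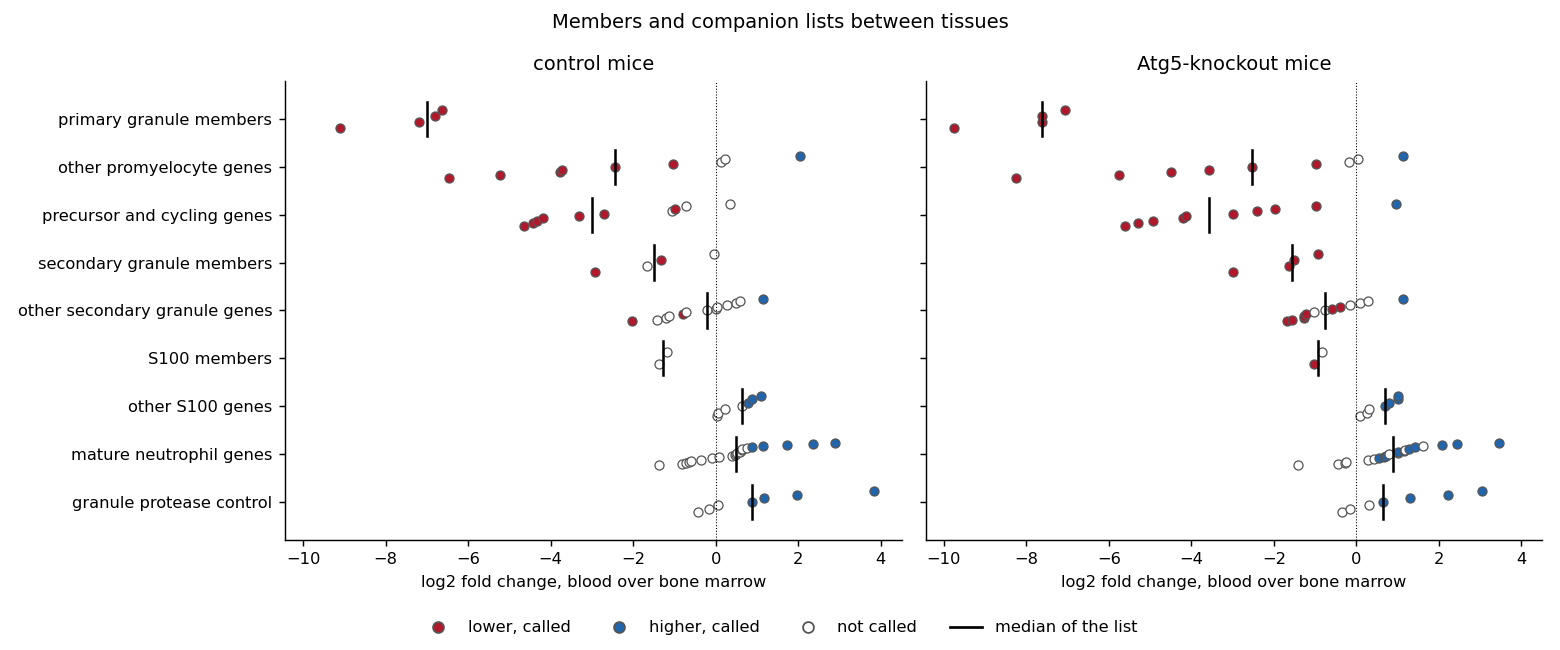
Each point is the log2 fold change of 1 gene, blood over bone marrow, in control (left) and Atg5-knockout mice (right), by list, red where called lower, blue where called higher and white where not called, with a line at the median of the list. Medians run from -7 (control) and -7.62 (Atg5-knockout) for the primary granule members to 0.491 and 0.894 for genes of mature neutrophils.

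Of 13 other S100 genes 7 were expressed enough to test. S100a11, S100a6 and S100a10, small calcium-binding proteins of many cell types, were called higher in blood in both genotypes (1.1, 0.88 and 0.79 in control, 1.01, 0.78 and 1 in Atg5-knockout mice), and S100a13 in Atg5-knockout mice (0.71). No other S100 gene was called lower, whereas edgeR called S100a8 lower in Atg5-knockout mice and S100a9 in neither. DESeq2 called S100a9 lower in control mice (log2 -1.13, adjusted p = 0.0423) and did not call S100a8 in Atg5-knockout mice (adjusted p = 0.0923). With library size alone S100a6 and S100a10 were not called in control mice, nor S100a13 in Atg5-knockout mice. Genes that package or restrain granule proteases were called higher in blood for 4 of 7 in each genotype, beside 16.2% and 23.5% of all genes. Srgn, the gene of the granule proteoglycan serglycin, rose by 1.97 and 2.22, and Slpi, an inhibitor of elastase and cathepsin G, by 1.16 and 1.29. Serpinb6b, which encodes a protease inhibitor of the serpin family, rose by 3.83 and 3.04. Of 10 genes for receptors of the released proteins 4 were called higher in each genotype, beside the same shares. Cd14 and Cd36, which take part in the binding of lipopolysaccharide and of S100A8 and S100A9 with fatty acids, rose by 2.43 and 4.69 in control and by 3.54 and 3.34 in Atg5-knockout mice.

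Of 13 granulocyte transcription factor genes 2 were called higher and 5 lower in control mice, and 4 higher and 5 lower in Atg5-knockout mice, where 16.2% and 18% of all genes were called higher and lower in the first and 23.5% and 24.1% in the second. Gfi1 and Cebpe are also in the list of further promyelocyte genes, so any call of theirs counts in both lists. Cebpb, a factor of emergency and mature granulopoiesis, rose by 3.02 and 4.27. Gfi1, a repressor that acts in granulocyte progenitors, fell (-3.72 and -3.57), as did Klf5 (-1.76 and -0.99) and Cebpd (-1.17 and -1.34). Between genotypes no gene of these companion lists was called, in bone marrow or in blood.

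Genes most like the members were named by their correlation over the 12 libraries among 14712 genes. The levels of the primary granule genes went with those of Cdkn3, Tacc3 and Fbxo5, which act in cell division, and of Fcnb and Serpinf1 (Pearson r of 0.997 to 0.998 with the mean of the 4). The wide gap between tissues sets this r, which would be high for any gene with a similar gap. None of these genes was among the most alike with group means removed. Cdkn3 was at 28.3 to 41.2 CPM in marrow and 2.84 to 3.79 CPM in blood. For the secondary granule and S100 genes they were Cd177, a neutrophil surface protein, Clec5a, Gsdme, Steap3 and Olfml2b (0.974 to 0.983), and with group means removed Wfdc21, Lmo2, Chi3l1, Cd177 and P2ry13 (0.974 to 0.993). Cd177 was at 162, 62.4 and 42.9 CPM in Atg5-knockout and 177, 92.7 and 27.3 CPM in control blood. With group means removed, the primary granule genes were most like Jrk, Mcpt8, Gm37108, Tada2a and Sirt3 (0.907 to 0.951). On that measure Mpo and Elane themselves had only 0.496 and 0.781 with the mean of the 4. Counts per library were low for Gm37108 (2 to 16) and in some libraries for Jrk (5 to 141) and Tada2a (22 to 217). Mcpt8 had 249 to 1516 and Sirt3 141 to 352. All libraries share 1 sequencing lane, and within a tissue the cell mixtures given above, so these values are a description.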

How the data were processed

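mRNA libraries were prepared from eosinophils of 3 Atg5-knockout and 3 control mice, from bone marrow and blood (12 libraries, 3 per group), and sequenced as single-end reads on 1 lane. HISAT2 2.2.1 served for alignment and featureCounts for counting. What the authors deposited is a table of whole-number counts for each gene that were not scaled. Its header names the annotation of GRCm38, while the Methods name one of GRCm39. The header also shows an option for paired-end fragments although the reads are described as single-end, so whether a count is a read or a fragment is not settled here. Coordinates are those of the table. The header shows no option for strand or for reads mapping to several places, so such reads were not counted and antisense genes cannot be told apart. Symbols were matched by identifier for 49674 of 53801 genes. Of 172 listed genes 171 were found.

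The counts were tested with edgeR 4.0.16 in R 4.3.3 (quasi-likelihood test, TMM factors, filterByExpr with a minimum count of 10 and a minimum total of 15, prior count 0.125 for the fold change, Benjamini-Hochberg adjustment over all genes tested, calls at an adjusted p under 0.05), on the 6 libraries of each of 4 comparisons and on all 12 for the difference of effects. The study used DESeq2, which is an alternative here (1.42.0). Other alternatives were each library left out, the replicate number as a block, a fit of all 12 libraries, scaling by RLE factors or by library size alone, and low counts kept or filtered at 1 CPM in 3 libraries. A fit without the blood libraries of number 1 was chosen after seeing the data. CPM used TMM factors over 12 libraries. TPM used exon lengths of the table. Likeness used log2 CPM with a prior count of 2. The test was tried on simulated counts before use. Intervals are at 95%.

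The members and lists were chosen with earlier results of these data known. Genes named beside the members are up to 4 called genes with the largest change per list and comparison, a fixed set (Ly6g, Csf3r, Cxcr2, Retnlg, Epx and Prg2) and the 5 genes most like each set of members. Labels do not say that libraries came from separate cultures, but the design names 3 mice per genotype. Whether marrow and blood of a number came from 1 mouse is not given. If mice gave both tissues, the main tests between tissues and of the difference of effects treat linked libraries as independent. Same-numbered blood libraries of the genotypes deviated from their group means together (correlations of 0.499, 0.208 and 0.298), so the numbers may pair them. The labels give no such pairing, and 3 correlations cannot settle it. In bone marrow (-0.147, -0.105 and 0.0041) and between tissues (-0.105 to 0.129) the correlations were lower. No 2 libraries of a group agreed within sampling noise. Precision is limited by 3 libraries per group and, for primary granule genes in blood, by 10 to 188 counts per library. One marker used in the purification, and the marker list that holds it, are not reported here.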

Additional observations from a re-analysis of the deposited data

Results flagged for a closer look

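Ngp was the one member whose libraries moved in opposite directions between the tissues without overlap. All 3 Atg5-knockout libraries lay above the control libraries in bone marrow (5462 to 6403 against 4705 to 5311 CPM) and all 3 lay below them in blood (2854 to 3064 against 3740.1 to 6080.1 CPM). The effect in blood minus that in bone marrow was -0.934 on the log2 scale (SE 0.242, interval -1.46 to -0.412). The test of this difference in all 12 libraries gave an unadjusted p of 0.00192 and an adjusted p of 0.852 with edgeR, which does not pass, and the adjusted p ranged from 0.112 to 1 over 18 alternatives. Ngp was flagged by this opposite non-overlap, so the pattern is not further support. Without regard to direction, the groups of 14.5% of all genes tested did not overlap in bone marrow and of 7.54% in blood. How many genes did so in opposite directions was not counted. The value of Ngp kept its sign in all 18 alternatives (-1.1 to -0.756), which reuse the same libraries. Groups of 3 libraries were not examined for single libraries that stand apart.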

How the results depend on the processing

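The number of members called changed by no more than 1.5 times in any alternative tried: 5 to 9 of 10 between tissues in control mice, 7 to 10 in Atg5-knockout mice, and 0 in every setting between genotypes and for the difference of effects. Mpo, Elane, Prtn3, Ctsg and Camp were called between tissues in all 13 alternatives in both genotypes. With the replicate number as a block, 7 and 10 members were called between tissues and 0 in the other comparisons. The block added Lcn2 in control and S100a9 in Atg5-knockout mice (adjusted p of 0.019 and 0.0403), and the call of no other member changed. In blood, where the numbers may pair the libraries, the block called 10 genes instead of 5, and Camp changed sign between genotypes (0.0712). In bone marrow it called 23 genes instead of 48.

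Over all genes, DESeq2 called 193 between genotypes in bone marrow, 22 in blood and 14 for the difference of effects, where edgeR called 48, 5 and 0. Without the filter there were 420, 77 and 119, and with all 12 libraries in 1 fit 12 in bone marrow and 16 in blood. Leaving out 1 library gave 219 in bone marrow without control replicate 1, 18 without control replicate 3 and 24 without Atg5-knockout replicate 1 or 2, and in blood 3 without Atg5-knockout replicate 1 and 2 without replicate 2 or 3 of either genotype. Between tissues in control mice 2627 to 3041 genes were called without bone marrow replicate 1, 2 or 3, where all libraries gave 4678. The causes were not tested.

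Signs turned only for differences that were not called. Without both blood libraries of number 1, Mpo was at 0.0128 and Ltf at 0.00206 between genotypes. Ngp between tissues in control mice was at 0.00536 with DESeq2 and 0.00536 with RLE factors. Camp in the difference of effects was at 0.0556 with library size alone and 0.0259 with the block. When 1 library was left out, the log2 difference between genotypes in bone marrow ranged from -0.195 to 0.091 for Ctsg, -0.108 to 0.13 for Ltf, -0.304 to 0.0153 for Camp, -0.235 to 0.029 for Lcn2, -0.309 to 0.0688 for S100a8 and -0.313 to 0.0314 for S100a9. In blood the ranges were -0.51 to 0.0549 for Elane, -0.635 to 0.38 for Ltf, -0.628 to 0.39 for Camp, -0.74 to 0.829 for Lcn2, -0.362 to 0.836 for S100a8 and -0.504 to 0.75 for S100a9. For Ngp between tissues in control mice the range was -0.203 to 0.139. For the difference of effects it was -0.718 to 0.301 for Ltf, -0.552 to 0.471 for Camp, -0.648 to 0.88 for Lcn2, -0.285 to 0.876 for S100a8 and -0.409 to 0.805 for S100a9.

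Under the filter of 1 CPM Elane was left out of the comparison in blood, so that 9 members were tested. Depth limits the primary granule genes in blood, at 10 to 188 counts per library, and the spread among 3 blood libraries limits the S100 and secondary granule genes.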
